A study of Mus musculus with 40 samples.

Results

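The proteasome is the barrel-shaped protease that degrades proteins tagged with ubiquitin, and its genes were followed in the left ventricles of mice lacking Rbm20. All genes were taken whose symbol is Psm, a letter from a to g and a number, with pseudogenes left out. The rule uses symbols alone, but it was chosen with earlier results of these data known. It gave 48 genes, each listed in both deposited gene tables, of 26824 genes listed in either (25462 in the table of females and 24930 in that of males). They fall into 11 classes by textbook role. The groups were 5 knockout females, 5 wildtype females, 5 knockout males and 5 wildtype males, all 10 weeks old, with 2 RNA-seq libraries per mouse. Rbm20 encodes a splicing regulator of muscle, and its loss is a known cause of dilated cardiomyopathy. The allele, the strain and the cells in which the gene was removed are not given in the sources used here.

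In the core particle, 2 outer rings of alpha subunits (Psma genes) enclose 2 inner rings of beta subunits (Psmb genes), and 3 beta subunits cut proteins. Interferon induces replacements for those 3, which turns the core into the immunoproteasome that favours peptides for class I presentation. A regulatory cap of ATPases (Psmc genes) and other subunits (Psmd genes) binds ubiquitin chains, removes them, unfolds the substrate and feeds it into the core. Other activators (Psme genes) open the core without ubiquitin, and in heart muscle the balance of synthesis and degradation by this machinery is part of how fibres are maintained.

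A value here is a normalized count: reads of a gene divided by the library's size factor, averaged over the libraries of a mouse. Each sex was scaled in its own table, so levels are compared within a sex. Libraries held 2351987 to 16973229 reads in genes, both extremes from ko_m_127, and ko_f_154 is represented by 1 library. Rbm20 itself had 354, 392, 289, 555 and 433 normalized counts in knockout females, against 1119, 1095, 1342, 1143 and 1001 in wildtype females. In males it had 304, 308, 221, 263 and 266 in knockouts, against 845, 795, 894, 865 and 809.8 in wildtype, so its transcript was lower in each knockout mouse than in each wildtype mouse of its sex but was still counted. All 8 cardiomyocyte markers were present in every group, with 0 passing in females and 1 lower in knockout males, and none had a mean under 10. Among all genes tested, 10.8% passed in females and 15.9% in males by limma at an adjusted p under 0.05. Of 10 fibroblast markers, 5 were higher and 0 lower in knockout females and 6 higher and 0 lower in knockout males. Of 10 endothelial markers, 0 were higher and 2 lower in each sex. Whether counts of 1 or 2 in these marker lists differ from those shares was not tested. Sums here are over all markers listed for a sex, including those not tested. These were 8 mural, 6 adipocyte and 5 red blood cell markers in each sex, and 5 atrial markers in females and 6 in males. The summed fibroblast level was 40655 to 54269 normalized counts in knockout females and 31559 to 39573 in wildtype females, and 32215 to 43196 in knockout males against 21673 to 35314 in wildtype males. The summed endothelial level was 22594 to 25429 in knockout females against 23522 to 27293 in wildtype females, and 17730.3 to 22570.1 in knockout males against 22945 to 25450.5 in wildtype males. Of 5 atrial markers tested, 1 was higher and 0 lower in knockout females, and 1 was higher and 1 lower in knockout males. The summed atrial level was 2016 to 28923 in knockout females against 218 to 4856 in wildtype females, and 2615 to 8613 in knockout males against 263 to 3055 in wildtype males. Of 7 mural cell markers tested, 0 were higher and 1 lower in each sex, with sums of 7805 to 10693 in knockout females against 10500.5 to 12161 in wildtype females and 6988 to 7977 in knockout males against 8015 to 9678 in wildtype males. Of 5 adipocyte markers tested in females 2 were higher and 0 lower, with sums of 437 to 4213 in knockouts against 53.5 to 694 in wildtype. In males 0 of 2 tested passed, with sums of 37.5 to 323 in knockouts against 45.8 to 177 in wildtype. Of 4 red blood cell markers in males 0 were higher and 2 lower, with sums of 11400.1 to 22307 in knockouts against 17110.4 to 39976 in wildtype. In females 0 of 4 passed, with sums of 7741 to 20065 in knockouts against 10366 to 35446 in wildtype. No fibroblast, endothelial or mural marker was at 0 in a group, and 1 atrial marker was, in knockout males. The atrial sum is led by Nppa in most knockouts, whereas Myl7, Myl4 and Sln were highest in 3 females: Myl7 had 8051 and 1223 normalized counts in the knockouts ko_f_151 and ko_f_154 and 1416 in the wildtype wt_f_144, against at most 173 in the other 7 females. In males Myl7 was the marker that was lower, with 0.213 to 1.58 normalized counts in knockouts against 0 to 692 in wildtype. The higher atrial sum of knockout males therefore does not stand for every atrial marker. The part of these cell types in the results that follow was not tested. In bulk tissue, fewer cells of a type and less RNA per cell cannot be told apart.

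Per length of transcript, the structural subunits were far above the immunoproteasome subunits Psmb8 and Psmb9 and the testis subunit. Levels between genes are given as mean normalized counts per 1000 bases of the main transcript. The highest was Psmb6, a catalytic subunit, with 1540 in knockout females and 1597 in wildtype females. Psmb2, Psmb3 and Psma7, all structural subunits of the core, and Psmc3, a cap ATPase, came next and held the ranks 2 to 5 in wildtype mice of both sexes. The 7 standard beta subunits spanned 308 to 1597 in wildtype females and 275 to 1412 in wildtype males, with the catalytic Psmb5 the lowest in both. The 7 alpha subunits spanned 255 to 1087 in wildtype females and 239 to 999 in wildtype males. The lowest, Psma2, was divided by 2911 bases and Psma3 by 2846, against 914 to 1239 in the other alpha subunits. The low end therefore depends on the transcript chosen. The 6 cap ATPases spanned 433 to 1077 in wildtype females, and the 8 lid subunits 225 to 605. Psme1, an activator of the core, was at 608 in knockout females and 858 in wildtype females, and the immunoproteasome subunit Psmb10 at 339 in knockout females and 332 in wildtype females. The immunoproteasome subunits Psmb9 and Psmb8 were at 54.4 and 35.3 in wildtype females and the inhibitor Psmf1 at 45.9. Psma8, the alpha subunit of the testis, was at 1.37 in knockout females and 1.54 in wildtype females and was the only one of the 48 genes under the filter of a mean of 10, so 47 were tested. Psmb11, the beta subunit of the thymus, was not analysed here. Psme2b is a near-identical copy of Psme2, so reads of these genes may be shared between them.

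**Figure D1:**
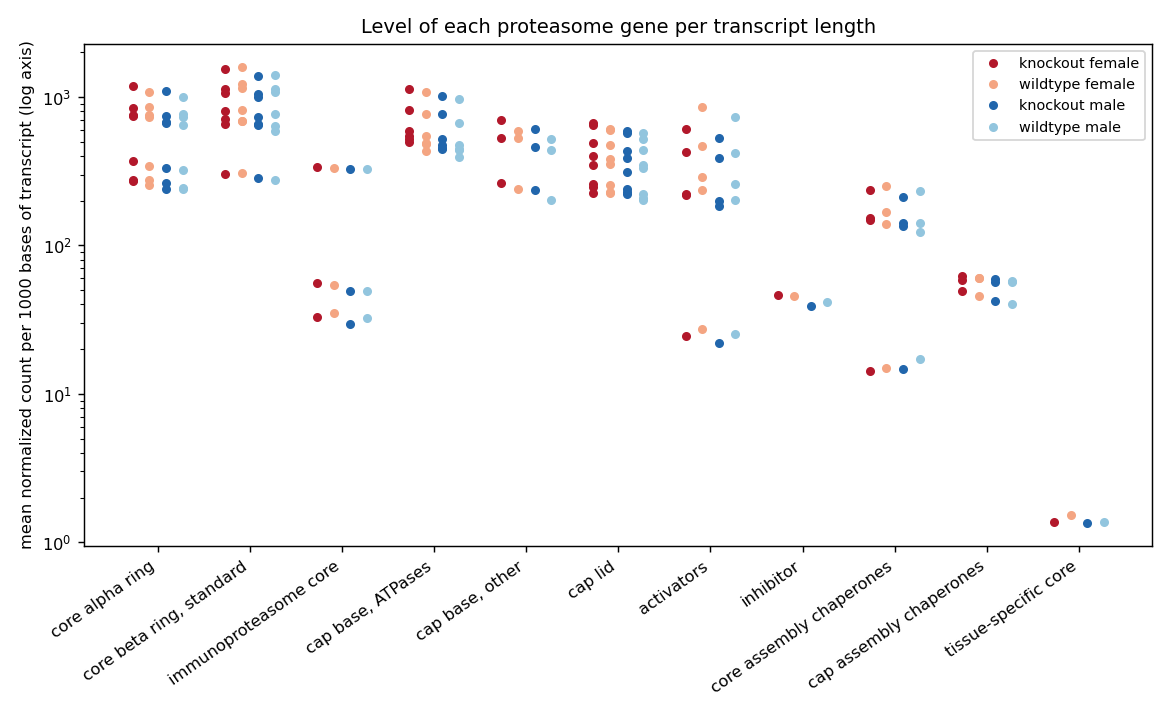
Mean normalized count per 1000 bases of transcript (log axis) of each of the 48 proteasome genes by class, with 1 point per gene and group. The standard core and cap subunits lie above 200, the immunoproteasome subunits Psmb8 and Psmb9 lie under 100, and the testis subunit Psma8 lies under 2.

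Most of the machinery differed little between knockout and wildtype hearts, while the activator Psme1 was lower in both sexes and the activator Psme4 was lower in males. In each sex 2 cap subunits were called higher by a small amount, near the threshold and not in every fit with 1 mouse left out. In females, 2 of 47 tested genes were higher in knockouts (Psmd4 and Psmc6) and 1 was lower (Psme1), by limma at an adjusted p under 0.05. Over all 12781 genes tested in females 10.8% passed, 5.28% higher and 5.51% lower, against 6.38% of the proteasome genes. In males, 2 were higher (Psmc6 and Psmd1) and 2 lower (Psme1 and Psme4), which is 8.51%, against 15.9% of 12506 genes, 7.6% higher and 8.29% lower. The share that passed was below the background in both sexes. Values given below as a gene being at a number are its log2 difference, knockout minus wildtype. The median log2 difference was 0.02 in females and 0.03 in males, against 0.0014 and -0.0012 over all genes tested. The median size without sign was 0.08 in females and 0.10 in males, against 0.13 and 0.14 over all genes. The proteasome genes were not matched for level with all genes, and the part of level in this was not tested. Knockout and wildtype mice did not overlap in 3 of the 47 in females and 3 in males, where the background was 9.14% and 12.7%. The authors' deposited table, which tests libraries rather than mice, has 8 of these genes higher and 2 lower in females and 6 higher and 2 lower in males at an adjusted p under 0.05, where 21.7% and 23.2% of all genes with an adjusted p passed.

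**Figure D2:**
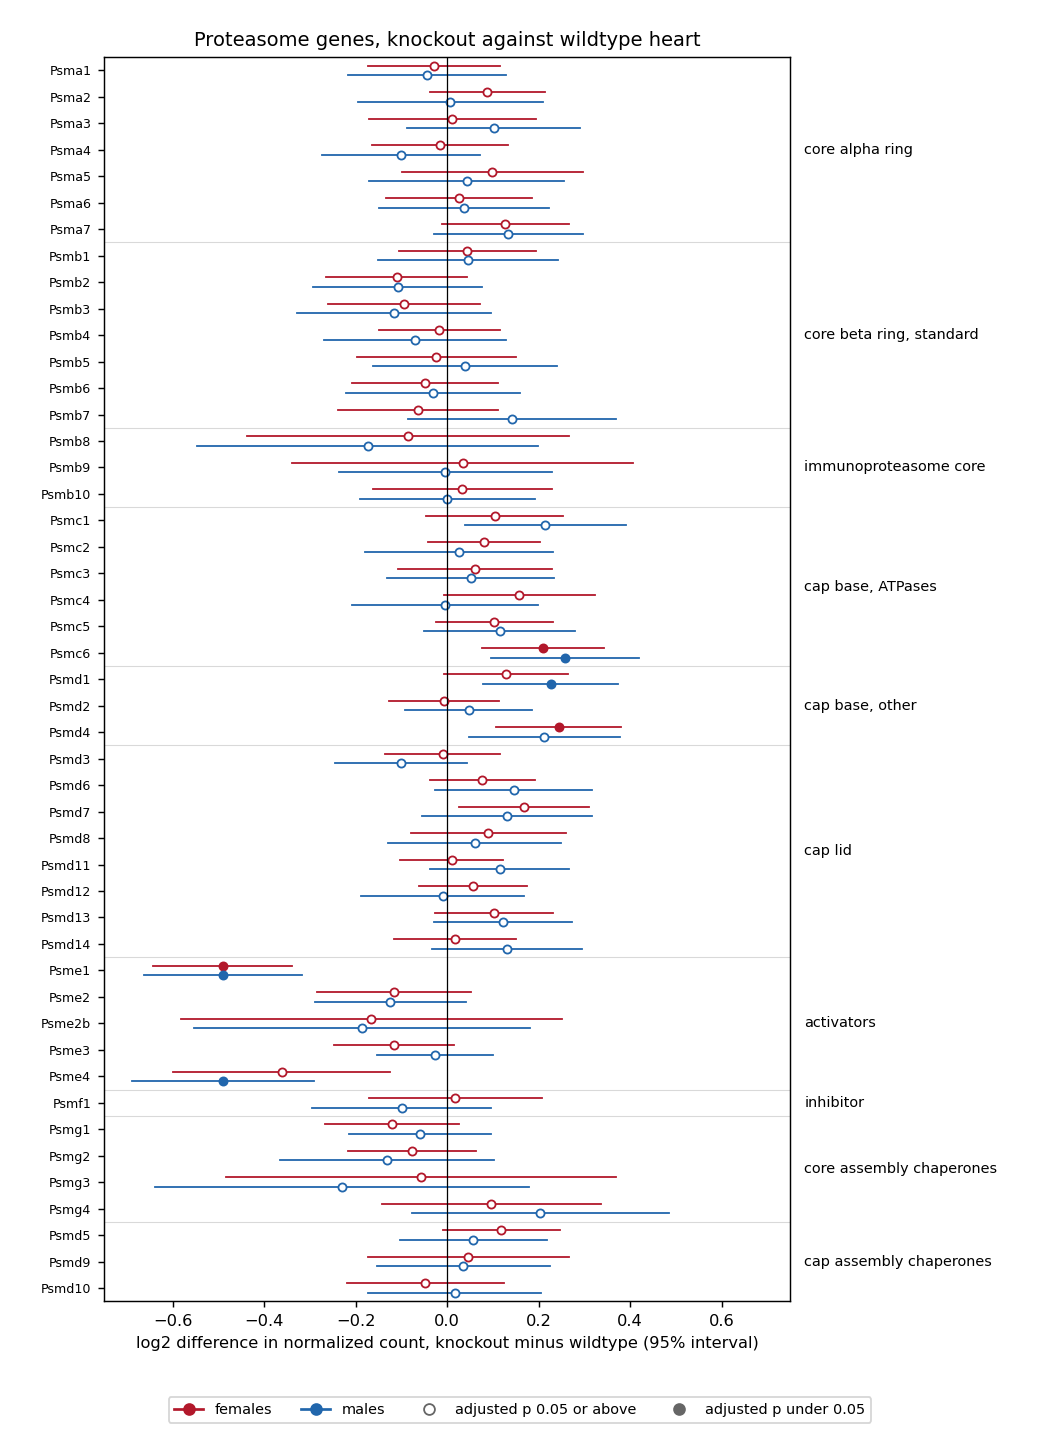
Log2 difference in normalized count, knockout minus wildtype, for the 47 tested genes by class, females and males, with 95% intervals; filled points have an adjusted p under 0.05. Psme1 lies at -0.49 in both sexes and Psme4 at -0.36 in females and -0.49 in males, while the core subunits lie around 0.

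The stretches before the transcription starts of the 5 genes that passed are shown because these genes moved in opposite directions. They are from RefSeq on build GRCm38.p6, which is not the build of the count tables, and were cut where a coding exon or an untranslated region of GENCODE M21 begins. Psme1 is at chr14:55578249-55578359, Psme4 at chr11:30771525-30771725, Psmc6 at chr14:45329574-45329787 and Psmd1 at chr1:86064369-86064618, all on the forward strand, and Psmd4 is at chr3:95042615-95042864 on the reverse strand. Capitals mark matches to 5 motifs on either strand.
Psme1: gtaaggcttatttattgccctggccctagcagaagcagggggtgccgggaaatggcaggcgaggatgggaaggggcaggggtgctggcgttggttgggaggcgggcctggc
Psme4: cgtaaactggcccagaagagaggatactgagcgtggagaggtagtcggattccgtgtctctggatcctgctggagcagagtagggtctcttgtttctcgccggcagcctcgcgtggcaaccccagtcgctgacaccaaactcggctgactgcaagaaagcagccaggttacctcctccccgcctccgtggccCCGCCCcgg
Psmc6: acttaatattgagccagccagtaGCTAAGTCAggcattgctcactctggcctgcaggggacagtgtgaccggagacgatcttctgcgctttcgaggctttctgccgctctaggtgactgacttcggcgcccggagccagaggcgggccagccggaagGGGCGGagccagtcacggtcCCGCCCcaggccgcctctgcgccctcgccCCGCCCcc
Psmd4: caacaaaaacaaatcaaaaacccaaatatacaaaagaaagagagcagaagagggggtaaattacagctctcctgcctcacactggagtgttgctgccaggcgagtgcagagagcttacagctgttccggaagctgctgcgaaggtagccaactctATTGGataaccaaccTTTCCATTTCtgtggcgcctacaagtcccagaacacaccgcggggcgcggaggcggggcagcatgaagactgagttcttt
Psmd1: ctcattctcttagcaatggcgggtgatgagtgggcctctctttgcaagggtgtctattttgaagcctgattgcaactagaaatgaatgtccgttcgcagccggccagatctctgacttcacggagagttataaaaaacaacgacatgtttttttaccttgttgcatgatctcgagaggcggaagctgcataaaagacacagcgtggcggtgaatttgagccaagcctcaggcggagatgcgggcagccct
The motifs were TGACNNNGC, the core of the antioxidant response element bound by NFE2-like and Maf factors, CCAAT, the box bound by NF-Y, the interferon response pair, which is GAAA, 2 bases of any kind and GAAA, TTCNNNGAA, the site of STAT factors, and GGGCGG, the GC box. Psmc6 holds 1 TGACNNNGC match, 227 to 219 bases before its start, and 3 GC boxes in the stretch shown. Psme4 holds 1 GC box, 58 to 53 bases before its start. Psmd4 holds a CCAAT box 95 to 91 bases and an interferon response pair 80 to 71 bases before its start. The stretches of Psme1 and Psmd1 shown hold none of the 5, but the full window of Psme1 holds 1 GC box in the part not shown, and that of Psmc6 holds 4 GC boxes in all. A window of 250 bases was given for 40 of the 48 genes, and TGACNNNGC was found in 5 of 40 (12.5%), against 10.2% of 32851 windows over all genes. Besides Psmc6 these were Psmb5, Psmb6, Psmd12 and Psmd9, which did not pass in either sex. A member counted once if any of its windows matched, while the shares over all genes are per window, so they are not the same measure. The GC box was found in 22 of 40 (55%) against 32.7%, CCAAT in 13 of 40 (32.5%) against 33.8%, the interferon response pair in 3 of 40 (7.5%) against 2.98%, and TTCNNNGAA in 2 of 40 (5%) against 7.02%. No 2 of the matches shown overlap.

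None of the 14 standard core subunits passed in either sex by limma, or by edgeR or DESeq2 on the recovered reads per mouse, and 0 had an unadjusted p under 0.05 by limma. Their median log2 difference was -0.02 in females and 0.02 in males, with 6 of 14 and 8 of 14 above 0. The 95% intervals of the 14 genes together ran from -0.26 to 0.30 in females and from -0.33 to 0.37 in males, so differences inside those bounds were not resolved with 5 mice a group. Psma7, an alpha subunit, had the largest value among the alpha subunits in both sexes, with 0.13 (95% interval -0.01 to 0.27, adjusted p = 0.238) in females and 0.13 (95% interval -0.03 to 0.30, adjusted p = 0.271) in males. In the authors' deposited table, which tests libraries, Psma7 passed in both sexes, with an adjusted p of 0.0232 in females and 0.0427 in males, and no other standard core subunit did. Among the beta subunits the lowest were -0.11 for Psmb2 in females and -0.12 for Psmb3 in males. Added over the 14 genes, the core summed to 11576 to 13037 normalized counts in knockout females against 11020 to 13182 in wildtype females, and to 9868 to 12314 in knockout males against 10030.2 to 12847 in wildtype males.

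The 3 standard catalytic subunits were followed mouse by mouse. Values in a group are always in the same order of mice: ko_f_150, ko_f_151, ko_f_154, ko_f_155 and ko_f_95; wt_f_140, wt_f_141, wt_f_142, wt_f_143 and wt_f_144; ko_m_106, ko_m_127, ko_m_128, ko_m_130 and ko_m_97; and wt_m_112, wt_m_113, wt_m_124, wt_m_125 and wt_m_139. Psmb6, which cuts after acidic residues, had 1269, 1223, 1335, 1186 and 1132 normalized counts in knockout females, against 1361, 1437, 1236, 1124 and 1215 in wildtype females. In knockout males it had 959.8, 1010.2, 1096, 1222 and 1235, against 1053, 1100.0, 1025, 1146 and 1309.9 in wildtype males. The groups overlapped in both sexes, with log2 differences of -0.05 (95% interval -0.21 to 0.11, adjusted p = 0.737) in females and -0.03 (95% interval -0.22 to 0.16, adjusted p = 0.863) in males. Psmb7, which cuts after basic residues, had 802, 717, 879, 766 and 652 in knockout females, against 825, 865, 797, 768 and 721 in wildtype females. For males the counts were 581, 711, 763, 855 and 858 in knockouts, against 593, 711, 620.1, 698 and 774 in wildtype. These too overlapped, at -0.06 (95% interval -0.24 to 0.11, adjusted p = 0.68) in females and 0.14 (95% interval -0.09 to 0.37, adjusted p = 0.42) in males. Psmb5, which cuts after hydrophobic residues and is the main target of bortezomib, had 288, 287, 252.2, 289 and 242 in knockout females, against 304, 304, 264, 249.6 and 260.5 in wildtype females. Male knockouts had 213, 226, 258, 278 and 305 and male wildtype mice 251.9, 236, 245, 235 and 269. Knockout males ranged more widely than wildtype males and enclosed them, and the differences were -0.02 (95% interval -0.20 to 0.15, adjusted p = 0.899) in females and 0.04 (95% interval -0.16 to 0.24, adjusted p = 0.834) in males.

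The immunoproteasome subunits did not pass either: 0 of 3 in each sex by limma, edgeR and DESeq2, and 0 at an unadjusted p under 0.05. Psmb9 replaces Psmb6, and it had 79.8, 62.7, 94.0, 53.1 and 88.6 normalized counts in knockout females, against 68.5, 67.5, 79.2, 55.6 and 96.7 in wildtype females. The males had 69.7, 56.6, 83.5, 60.8 and 64.4 in knockouts, against 64.5, 74.6, 64.7, 63.0 and 67.0 in wildtype. Both genotypes covered much the same range, with log2 differences of 0.03 (95% interval -0.34 to 0.41, adjusted p = 0.934) and 0.00 (95% interval -0.24 to 0.23, adjusted p = 0.986). Psmb10 replaces Psmb7, with 441, 390.4, 512, 443 and 434 in knockout females, against 474, 445, 365, 403 and 487 in wildtype females. Knockout males had 369, 394, 467, 495 and 411 and wildtype males 462, 453, 373, 428 and 413. Again the groups overlapped, at 0.03 (95% interval -0.16 to 0.23, adjusted p = 0.867) in females and 0.00 (95% interval -0.19 to 0.19, adjusted p = 0.9999) in males. Psmb8 replaces Psmb5 and was per length the lowest of the 3, with 64.0, 48.7, 62.7, 43.1 and 49.7 in knockout females, against 59.6, 57.5, 59.7, 38.3 and 72.3 in wildtype females. Among males it stood at 57.9, 47.2, 67.0, 36.7 and 32.2 in knockouts, against 60.9, 48.0, 49.5, 47.4 and 58.5 in wildtype. The lowest 2 of the 10 males were knockouts and so was the highest, and the differences were -0.09 (95% interval -0.44 to 0.27, adjusted p = 0.799) in females and -0.17 (95% interval -0.55 to 0.20, adjusted p = 0.562) in males. Per length, Psmb10 was at a median of 51.1 for each 100 of Psmb7 in knockout females and 46.4 in wildtype females, and at 51.2 in knockout males and 54.3 in wildtype males. Psmb8 was at 11.3 for each 100 of Psmb5 in knockout females and 10.8 in wildtype females, and Psmb9 at 3.71 for each 100 of Psmb6 in knockout females and 2.97 in wildtype females. In males Psmb8 was at 11.5 in knockouts and 11.2 in wildtype and Psmb9 at 3.31 in knockouts and 3.61 in wildtype, and the ranges overlapped in both sexes for all 3 pairs. None of 14 macrophage markers passed in either sex by limma, and their summed level was 3144 to 4379 in knockout females against 3389 to 5233 in wildtype females and 2745 to 3950.0 in knockout males against 3128 to 4546 in wildtype males. The 12 lymphocyte markers summed to 27.6 to 64.3 in knockout females against 21.9 to 72.9 in wildtype females, and to 31.6 to 49.6 in knockout males against 20.3 to 36.9 in wildtype males. Of the 12, 11 had a mean under 10 in knockout females, wildtype females and knockout males, and all 12 in wildtype males. Only 1 was tested in females, where it did not pass, and 0 in males.

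**Figure D3:**
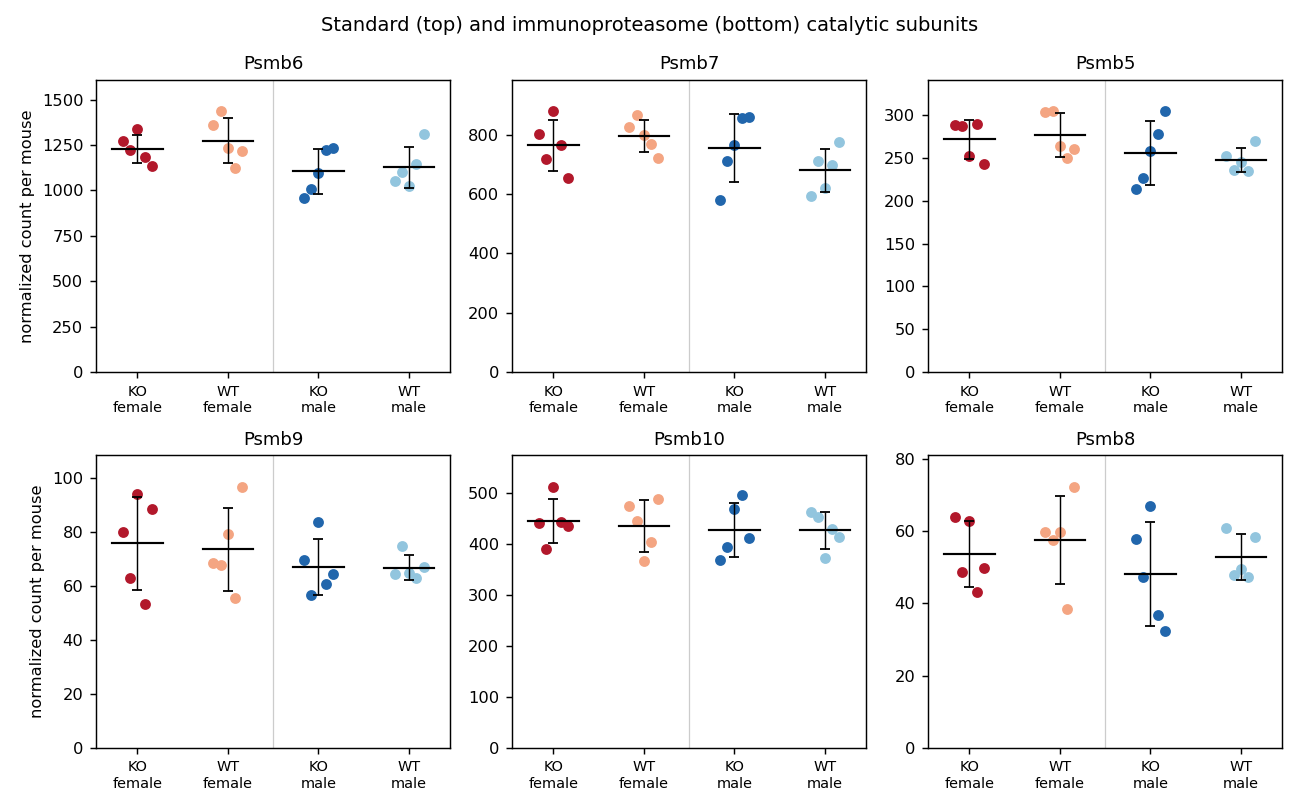
Normalized count per mouse of the standard catalytic subunits Psmb6, Psmb7 and Psmb5 (top) and of the immunoproteasome subunits Psmb9, Psmb10 and Psmb8 that replace them (bottom), 5 mice per group, with bars for the mean and SD. Knockout and wildtype mice overlap in all 6 genes in both sexes.

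In the cap, values leaned upward without most genes passing. Of 17 base and lid subunits, 15 were above 0 in females and 14 in males, against 6426 of 12781 and 6223 of 12506 genes tested. Their median log2 differences were 0.09 and 0.11, against 0.0014 and -0.0012 over all genes tested. Cap subunits varied together between mice of a group, with a median correlation of 0.56 over pairs in 20 mice. The 17 are therefore not separate observations of a shift. Of the 17, 2 passed in females (Psmc6 and Psmd4) and 2 in males (Psmc6 and Psmd1), all higher in knockouts, while the other 15 did not pass in each sex. That is 11.8%, close to the 10.8% of all genes in females and below the 15.9% in males. The ratio of the summed cap to the summed core counts was 1.199 to 1.45 in knockout females against 1.18 to 1.32 in wildtype females, and 1.21 to 1.43 in knockout males against 1.15 to 1.28 in wildtype males, so the genotypes overlapped.

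Psmc6 (ENSMUSG00000021832.9, chromosome 14, 45567245 to 45587162, forward strand, build GRCm39), 1 of the 6 ATPases that unfold substrates, was the cap gene called by limma in both sexes. It had 1171, 1091, 1191, 1051 and 1079 normalized counts in knockout females, against 1012, 1016, 1006, 904 and 893 in wildtype females. Every knockout female was above every wildtype female, with a log2 difference of 0.21 ± 0.06 (SE, adjusted p = 0.0477). Knockout males had 1045, 935, 1043, 1133 and 1123, against 828, 886, 809, 908 and 988 in wildtype males. One knockout male, ko_m_127, lay below the highest wildtype male, and the difference was 0.26 ± 0.08 (SE, adjusted p = 0.0312). Psmd4 (ENSMUSG00000005625.16, chromosome 3, 94940005 to 94949925, reverse strand), a receptor for ubiquitin chains, had 942, 953, 865, 899 and 1024 in knockout females, against 822, 856, 776, 743 and 756 in wildtype females. The female groups did not overlap, at 0.24 ± 0.06 (SE, adjusted p = 0.0256). In males it had 834, 732, 778, 860.4 and 841 in knockouts, against 693, 624, 647, 761 and 772 in wildtype, with overlap and a value of 0.21 ± 0.08 (SE, adjusted p = 0.0774). Psmd1 (ENSMUSG00000026229.18, chromosome 1, 85992109 to 86066873, forward strand), a large scaffold of the base, had 815, 809, 725, 873 and 867 in knockout females, against 724, 755, 759, 789.7 and 709.6 in wildtype females. That was 0.13 ± 0.06 (SE, adjusted p = 0.223), with overlap. Knockout males had 715, 764, 686, 707 and 780.4, against 578, 579.6, 636, 679 and 652 in wildtype males. The male groups did not overlap, at 0.23 ± 0.07 (SE, adjusted p = 0.0379). These calls sit near the threshold: with 1 mouse left out, Psmc6 passed in 1 of 10 female and 3 of 10 male fits, Psmd4 in 6 of 10 female fits and Psmd1 in 4 of 10 male fits. The count of higher members fell to 0 in females without ko_f_151, ko_f_95, wt_f_142 or wt_f_143 and to 1 without ko_f_150, ko_f_154, wt_f_140, wt_f_141 or wt_f_144. In males it was 0 without ko_m_106, ko_m_97, wt_m_112, wt_m_113 or wt_m_124, 1 without ko_m_128 or ko_m_130, and 4 without wt_m_139, where Psmc1 and Psmd4 joined. Without ko_f_151, ko_f_154 and wt_f_144, the females highest in the atrial markers Myl7, Myl4 and Sln, a choice made after seeing the data, Psmc6 was at 0.16 (adjusted p = 0.212) and Psmd4 at 0.26 (adjusted p = 0.0624).

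The other ATPases and lid subunits named by the rule did not pass by limma. In the authors' deposited table, which tests libraries, Psmc1 passed in males (adjusted p = 0.0018), Psmc4 in females (adjusted p = 0.0397) and Psmd7 in females (adjusted p = 0.00899). The ATPases Psmc5 (adjusted p = 0.0111) and Psmc2 (adjusted p = 0.0422) also passed there in females. So did Psmd1 in females (adjusted p = 0.00589) and Psmd4 in males (adjusted p = 9.67e-04), which limma called in the other sex only. Psmc1, an ATPase that opens the gate of the core, had 1300.2, 1262, 1221, 1248 and 1508 normalized counts in knockout females, against 1305, 1281, 1196, 1171 and 1123 in wildtype females. Knockout males had 1213, 1091, 1219, 1364 and 1233 and wildtype males 960.4, 974, 1009, 1109.6 and 1230.1. Its differences were 0.10 ± 0.07 (SE, adjusted p = 0.383) in females and 0.21 ± 0.08 (SE, adjusted p = 0.0956) in males, and 1 knockout female, ko_f_95, stood above the rest. Psmc4, another ATPase, had 672, 776, 764, 809 and 884 in knockout females, against 658, 748, 640.1, 707 and 740.4 in wildtype females. In males the counts were 673, 514, 639, 783 and 634 in knockouts, against 661, 608, 594, 671 and 697 in wildtype. The groups overlapped, at 0.16 ± 0.08 (SE, adjusted p = 0.22) in females and 0.00 ± 0.10 (SE, adjusted p = 0.984) in males. Psmd7, the lid partner of the deubiquitinase Psmd14, had 1029, 1039, 1010.3, 998 and 1227 in knockout females, against 929.9, 1019, 928, 916 and 920.3 in wildtype females. Males carried 999, 772, 823, 1015 and 945 in knockouts, against 797, 788, 769.6, 863 and 928 in wildtype. Here ko_f_95 was again the highest, and the differences were 0.17 ± 0.07 (SE, adjusted p = 0.128) and 0.13 ± 0.09 (SE, adjusted p = 0.356). Psmd14, which cuts ubiquitin chains from substrates, had 343, 349, 348, 357 and 351 in knockout females, against 326, 361, 311, 368 and 364 in wildtype females. The male counts were 349, 309, 322, 375 and 366 in knockouts, against 316, 306, 288, 309 and 350.2 in wildtype. Its female knockouts lay within the range of the wildtype females, and the values were 0.02 (95% interval -0.12 to 0.15, adjusted p = 0.904) in females and 0.13 (95% interval -0.03 to 0.29, adjusted p = 0.287) in males. Psmd11, a lid subunit that touches the core and the base, had 726, 715, 722, 773 and 732 in knockout females, against 745, 727, 738, 752 and 681 in wildtype females. Knockout males stood at 762, 615, 639.6, 710.2 and 695 and wildtype males at 602, 626, 638, 612 and 675. The genotypes overlapped, at 0.01 (95% interval -0.10 to 0.12, adjusted p = 0.934) in females and 0.11 (95% interval -0.04 to 0.27, adjusted p = 0.314) in males. Over the 8 lid subunits, 0 passed in either sex by limma, edgeR or DESeq2, and at an unadjusted p under 0.05 there was 1 in females (Psmd7) and 0 in males. In the authors' deposited table the lid subunits Psmd7 in females and Psmd13 in males (adjusted p = 0.0348) passed.

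The clearest differences were in the activators Psme1 and Psme4. Psme1 was lower in knockouts of both sexes and Psme4 in males, while Psme2, Psme2b and Psme3 did not pass in either sex. All 5 activators were below 0 in both sexes, with a median of -0.17 in females and -0.19 in males. Of all genes tested, 6426 of 12781 were above 0 in females and 6223 of 12506 in males. Psme1 and Psme2 varied together between mice of a group, with a correlation of 0.76 in 20 mice, against -0.26 for Psme1 and Psme4. Psme2 and Psme2b may share reads. The 5 are therefore not all separate observations. Psme1 (ENSMUSG00000022216.18, chromosome 14, 55815580 to 55818986, forward strand) is the alpha subunit of the interferon-inducible ring that, together with Psme2, opens the core to peptides. It had 714, 649, 658, 691 and 669 normalized counts in knockout females, against 1034, 1080.0, 871, 903 and 883 in wildtype females. In males it had 565, 494, 644, 628 and 597 in knockouts, against 753, 823, 806, 810.1 and 913 in wildtype. Every knockout mouse lay below every wildtype mouse of its sex. The mean was 676 ± 26.3 in knockout females and 954 ± 96.0 in wildtype females, and 586 ± 59.2 in knockout males and 821 ± 57.9 in wildtype males (SD, n = 5 each). The log2 difference was -0.49 ± 0.07 (SE, adjusted p = 9.48e-04) in females and -0.49 ± 0.08 (SE, adjusted p = 7.48e-04) in males, a ratio of 0.712 in each. It passed in all 20 fits with 1 mouse left out, and at -0.49 (adjusted p = 0.00602) in females without ko_f_151, ko_f_154 and wt_f_144.

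Psme2 (ENSMUSG00000079197.11, chromosome 14, 55824898 to 55828570, reverse strand), the beta subunit of the same ring, lies beside Psme1 on the opposite strand. Its counts were 407, 395, 460.3, 389.6 and 411 in knockout females, against 495, 489.6, 405, 397 and 455 in wildtype females. Knockout males had 349, 326, 418, 394 and 376, against 395, 392, 386, 409 and 445 in wildtype males. It did not pass, at -0.12 (95% interval -0.28 to 0.05, adjusted p = 0.385) in females and -0.12 (95% interval -0.29 to 0.04, adjusted p = 0.318) in males. The ratio of Psme1 to Psme2 counts within a mouse, chosen after the values were seen and given without a test, was 1.43 to 1.77 in knockout females against 1.94 to 2.27 in wildtype females. In males it was 1.51 to 1.62 in knockouts against 1.91 to 2.10 in wildtype, so the genotypes did not overlap in either sex. For each 100 counts of the summed core, Psme1 had 5.05 to 5.97 in knockout females against 7.51 to 8.19 in wildtype females, and 4.85 to 5.77 in knockout males against 7.11 to 8.04 in wildtype males. This ratio is also given without a test. Both ratios are made from the Psme1 counts, so they are not evidence apart from its own difference. The Psme2 copy Psme2b was at -0.17 (adjusted p = 0.648) in females and -0.19 (adjusted p = 0.526) in males. Emc9, a gene of a membrane protein insertion complex that overlaps Psme1 by 14 bases on the other strand, was at 0.15 (adjusted p = 0.206) in females and 0.09 (adjusted p = 0.642) in males.

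Psme4 (ENSMUSG00000040850.18, chromosome 11, 30721726 to 30830361, forward strand) is a large single-chain activator that caps the core and is linked to the turnover of acetylated histones. It had 1489, 1316, 1396, 1446 and 1519 normalized counts in knockout females, against 1725, 1932, 2240.5, 2056 and 1371 in wildtype females. Knockout females lay together near the bottom of a wide wildtype range, and wt_f_144 was inside the knockout range. The difference was -0.36 ± 0.11 (SE, adjusted p = 0.0525), just above the threshold. In males it had 1272, 1243, 1197, 1127 and 1132 in knockouts, against 2124, 1738, 1574, 1582 and 1435 in wildtype. The male groups did not overlap, and the difference was -0.49 ± 0.09 (SE, adjusted p = 0.00222). Wildtype mice spread more than knockouts: the SD was 80.1 in knockout females and 334 in wildtype females, and 64.8 in knockout males and 265 in wildtype males. The wildtype female wt_f_144 also had the highest atrial and fibroblast sums of its group, whose part in this was not tested, and without it Psme4 was at -0.47 (adjusted p = 0.0021) in females. Without it and the knockouts ko_f_151 and ko_f_154 it was at -0.42 (adjusted p = 0.0147). Psme3, the nuclear activator, had 559, 606, 550.0, 584 and 612 in knockout females, against 667, 603, 654, 656 and 578 in wildtype females. The male counts stood at 530.3, 509, 541, 531 and 535 in knockouts, against 535, 555, 517, 521 and 570.1 in wildtype. It did not pass, at -0.12 (95% interval -0.25 to 0.02, adjusted p = 0.255) in females and -0.03 (95% interval -0.15 to 0.10, adjusted p = 0.817) in males.

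**Figure D4:**
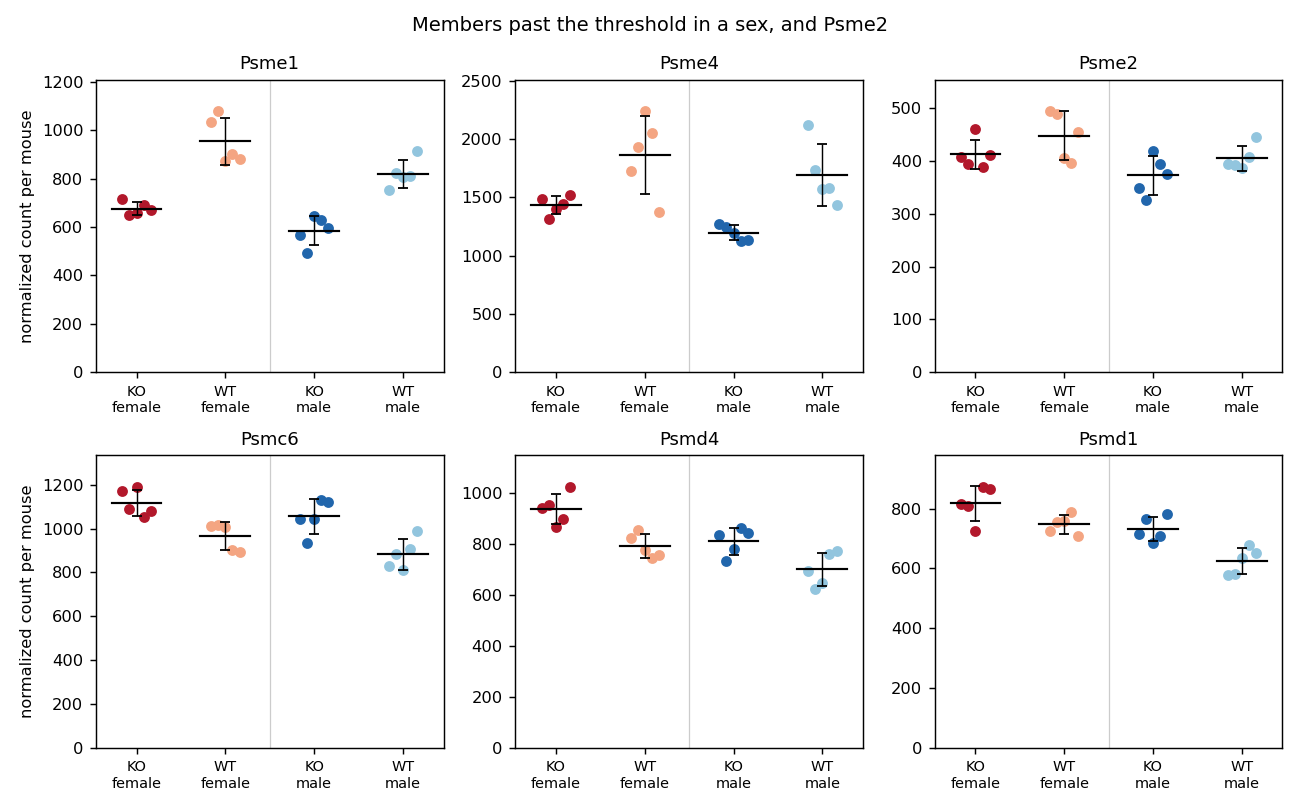
Normalized count per mouse of the 5 genes that passed in at least 1 sex (Psme1, Psme4, Psmc6, Psmd4 and Psmd1) and of Psme2, 5 mice per group, with bars for the mean and SD. Psme1 is lower in every knockout than in every wildtype mouse of its sex, while Psme2 overlaps.

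**Figure D5:**
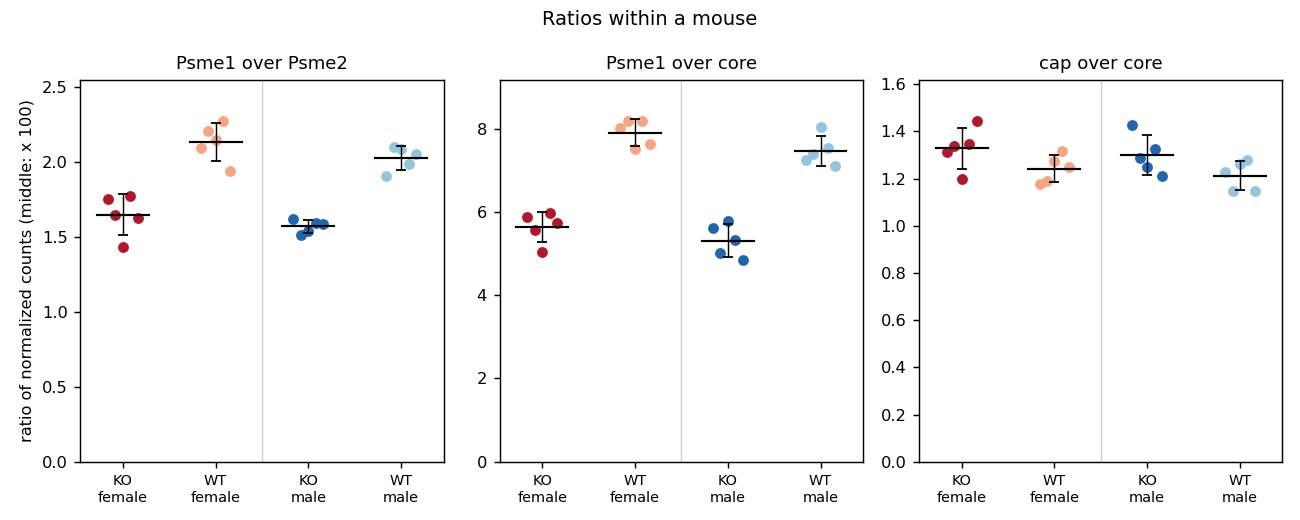
Ratios within a mouse: Psme1 to Psme2, Psme1 to the summed core (times 100) and the summed cap to the summed core, 5 mice per group, with bars for the mean and SD. The first 2 ratios, both made from the Psme1 counts, separate the genotypes in both sexes (Psme1 to Psme2 is 1.43 to 1.77 in knockout females and 1.94 to 2.27 in wildtype females), and the cap to core ratio overlaps.

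Of the chaperones and the inhibitor, 0 passed by limma, edgeR or DESeq2 in either sex, and 0 had an unadjusted p under 0.05. The 4 chaperones that assemble the core were at -0.12 (Psmg1), -0.08 (Psmg2), -0.06 (Psmg3) and 0.10 (Psmg4) in females. In males they were at -0.06, -0.13, -0.23 and 0.20 in the same order. The 3 chaperones of the cap, Psmd5, Psmd9 and Psmd10, lay between -0.05 and 0.12 in females and between 0.02 and 0.06 in males. Psmf1, which inhibits the core in the test tube, was at 0.02 (95% interval -0.17 to 0.21, adjusted p = 0.929) in females and -0.10 (95% interval -0.30 to 0.10, adjusted p = 0.525) in males.

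The series asks how the sexes differ, and no proteasome gene passed the test of a difference between the sexes in its knockout change. The difference, the male change minus the female change in 1 fit of 20 mice, passed for 0 of 47 genes by limma, edgeR and DESeq2, and 0 had an unadjusted p under 0.05. Over all 12651 genes, 0% passed by limma and 0 by edgeR, 49 passed by DESeq2, and 1031 had an unadjusted p under 0.05 by limma. The smallest p among the members was 0.16, for Psmb7, at 0.21 (95% interval -0.09 to 0.50, p = 0.16). Psme1 was at 0.00 (95% interval -0.22 to 0.22, p = 0.997) and Psme4 at -0.13 (95% interval -0.44 to 0.19, p = 0.405), so a difference of up to about 0.22 between the sexes in Psme1 lies inside its interval. Psmd1, called by limma in males alone, was at 0.10 (95% interval -0.09 to 0.28, p = 0.28), and Psmd4, called by limma in females alone, at -0.03 (95% interval -0.23 to 0.17, p = 0.754).

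Other genes of the pathway were read from the same fits. Of 13 genes that act on proteasome gene transcription, 2 were higher in knockout females (Nfe2l2 and Mafk), 2 in knockout males (Nfe2l1 and Mafk), and 0 were lower in either. Among all genes 10.8% passed in females and 15.9% in males, so 2 of 13 is near the background. Mafk, a small partner of the NFE2-like factors, had 341, 378, 345, 311 and 322 normalized counts in knockout females, against 296, 276, 307, 271 and 232 in wildtype females. Knockout males had 321, 326, 289, 344 and 364, against 211, 201, 226, 226 and 257 in wildtype males. The groups were separate in both sexes, at 0.30 ± 0.08 (SE, adjusted p = 0.0356) and 0.55 ± 0.08 (SE, adjusted p = 3.77e-04). Nfe2l1, the factor that restores proteasome genes after inhibition, was at 0.21 ± 0.08 (SE, adjusted p = 0.121) in females and 0.29 ± 0.09 (SE, adjusted p = 0.0456) in males, with overlap in both. Nfe2l2, the factor of the antioxidant response, was at 0.25 ± 0.07 (SE, adjusted p = 0.0368) in females, where the groups did not overlap, and 0.13 ± 0.08 (SE, adjusted p = 0.321) in males. Of the others, Nfya was at -0.24 (adjusted p = 0.121) in females, and Ngly1 was at 0.16 (adjusted p = 0.139) and Maff at 0.36 (adjusted p = 0.142) in males. Of 22 genes of the interferon response and class I presentation, 1 was higher and 0 lower in each sex, and their median was -0.02 in females and -0.10 in males. It was Ifngr1, a receptor chain for interferon gamma, in both, at 0.34 ± 0.08 (SE, adjusted p = 0.0122) in females and 0.28 ± 0.07 (SE, adjusted p = 0.017) in males, with separate groups. Its partner chain Ifngr2 was at -0.30 (adjusted p = 0.0749) in females and -0.23 (adjusted p = 0.121) in males, and the peptide transporter gene Tap2 was at -0.28 (adjusted p = 0.0661) in males.

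None of the genes around the proteasome passed by limma: 0 of 9 cap and assembly factors outside the Psm names, 0 of 5 ubiquitin genes and E1 enzymes, and 0 of 14 genes that deliver substrates. At an unadjusted p under 0.05 there were 1, 1 and 0 in females and 1, 1 and 0 in males, and edgeR and DESeq2 each called 1 of the first list in males and 0 otherwise. The smallest p in the first list belonged in both sexes to Txnl1, a thioredoxin-like protein of the cap, at 0.18 ± 0.07 (SE, adjusted p = 0.114) in females and 0.22 ± 0.07 (SE, adjusted p = 0.0587) in males. Pomp, the maturation chaperone of the core, was at 0.08 (adjusted p = 0.566) in females and 0.19 (adjusted p = 0.22) in males. Ubb, a polyubiquitin gene, was at 0.19 (adjusted p = 0.106) in females and 0.16 (adjusted p = 0.253) in males. Ubqln4, a shuttle of ubiquitinated proteins, was at -0.17 (adjusted p = 0.204) in females.

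Since Rbm20 regulates splicing, the authors' deposited exon tables were read for the same genes. They list exon bins, the pieces of a gene between exon boundaries, at an unadjusted p of at most 0.05, with the gene's coordinates but not the bin's. Their counts are per library, not per mouse, so the authors' p-values for bins treat libraries of 1 mouse as replicates. In females, 44 bins in 22 of the 47 members are listed, near the 47.6% of all genes tested with a listed bin, and 1 bin has an authors' adjusted p under 0.05, where 2.66% of all genes tested had such a bin. That is bin 2 of Psmg4, a core chaperone, with an adjusted p of 1.66e-05 in the authors' deposited table. It held 21.9 to 32.8 reads for each 100 reads of the gene in knockout females, against 9.03 to 20.4 in wildtype females. In males the same bin held 20.2 to 32.8 in knockouts against 16.3 to 20.96 in wildtype, with an authors' adjusted p of 0.0517. In males, 79 bins in 28 members are listed, where 58.5% of all genes tested had a listed bin, and 7 bins in 5 members have an authors' adjusted p under 0.05, which is 10.6% of 47 members against 8.95% of all genes tested. Among them are 3 bins of Psmb6 and 1 each of Psmb10, Psmd2, Psmc3 and Psmd3. Bin 12 of Psmb6 held 26.2 to 26.9 reads per 100 of the gene in knockout males against 27.1 to 30.2 in wildtype males, without overlap, and bin 6 held 34.6 to 39.5 against 32.04 to 35.1, with overlap. Bin 11 of Psmc3 held 20.8 to 23.8 in knockout males against 18.7 to 20.4 in wildtype males. The ratio of the group means of these 7 bins ran from 0.824 to 1.19. No listed bin of Psme1, Psme4, Psmc6, Psmd4 or Psmd1 had an authors' adjusted p under 0.05.

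Some counts could include reads of a neighbour. Whether counting used strand is not given in the sources used here, and 19 of the 48 genes overlap another listed gene, 15 of them on the opposite strand. Psmd1 overlaps 3 listed genes, of which Gm37914 (2679 bases) and Gm22786 (122 bases) lie on its own strand. On the opposite strand it overlaps Htr2b, a serotonin receptor gene, over 12945 bases, with a mean of 3.53 normalized counts in knockout females against 2.37 in wildtype females, and of 1.19 in male knockouts against 2.03 in male wildtype mice. For Psme4 it is Gm12103, over 362 bases, with means under 1 in every group, and for Psmb9 it is Tap1, over 212 bases.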

How the data were processed

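RNA from left ventricles, extracted with TRI Reagent, was sequenced on a BGISEQ-500, per the labels. The submitters' processing notes name the aligner STAR 2.7.10a, DESeq2 and the build GRCm39; the read counter and annotation are not given in the sources used here. Each sex has its own deposited gene table, whose values (signal) are reads divided by a size factor of the library: 100% of values came out as whole reads to a tolerance of 1e-06. The authors' deposited log2 fold changes and p-values, and the deposited counts per exon bin, were used as such. The column of 1 library matched no label and was not used, leaving 39 of 40 libraries.

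Libraries of a mouse were averaged (n = 5 mice per group). Genes with a mean of at least 10 entered limma 3.58.1 (R 4.3.3) as log2(value + 1), with a variance trend, two-sided, with Benjamini-Hochberg adjustment over all genes; log2 differences are on that scale and are knockout minus wildtype. Because the deposited unit is not a raw count, the recovered reads were also tested with edgeR 4.0.16 and with DESeq2 1.42.0, and the authors' test was read as a further alternative. The test was checked on simulated data. P-values of limma, and of edgeR and DESeq2 on the recovered reads, measure the spread between these mice. Those in the authors' gene and exon tables rest on libraries rather than mice. Level per length used the longest transcript of the best APPRIS principal level of GENCODE M21. The members and gene lists were chosen with earlier results of these data known. Named genes are the catalytic subunits, Psmd14, Psme1 to Psme4, the 6 members with the smallest p in each fit, every member that passed, and up to 4 genes per list. The 3 females left out together for their Myl7, Myl4 and Sln were chosen after seeing the data.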

Additional observations from a re-analysis of the deposited data

Results flagged for a closer look

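Among 72 groups of 5 mice in 18 named genes, 3 had a mouse far from the other 4, where chance gives about 1 in 20. The knockout female ko_f_95 had 1508 normalized counts of Psmc1, against 1221 to 1300.2 in the other 4, and 1227 of Psmd7, against 998 to 1039. The wildtype female wt_f_141 had 1019 of Psmd7, against 916 to 930 in the other 4.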

How the results depend on the processing

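Psme1 passed in both sexes and Psme4 in males under every alternative run. In females, 1 member was higher, not 2, with no filter, with no variance trend, by edgeR and with library 1 alone, 0 with library 2 alone and without the 3 females highest in Myl7, Myl4 and Sln (ko_f_151, ko_f_154 and wt_f_144), and 8 in the authors' deposited DESeq2 test. Lower members in females numbered 2, not 1, with non-mitochondrial total scaling, by edgeR, by DESeq2, in 1 fit of all 4 groups, without those 3 females and in the authors' test, Psme4 being the second. In males, the higher members numbered 1 with no filter, 0 with no variance trend and with library 1 alone, 4 with non-mitochondrial total scaling and 6 in the authors' test. Leaving out 1 mouse gave 0 to 2 higher and 1 to 2 lower in females, and 0 to 4 higher and 2 lower in males. The cause of these shifts was not tested. No member passed the test of a difference between the sexes under any alternative run. No paired analysis was possible because the mouse numbers are not shared between groups. The number of mice limits what could be called: the 95% interval of a core subunit reached 0.37 on the log2 scale.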
